A study of Homo sapiens with 6 samples.

Results

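The pentose phosphate pathway enzymes were described in HT29 cells by RNA-Seq. The group holds 9 genes chosen by name for their place in the pathway: PGLS and PGD of the oxidative branch, RPIA, RPE, TKT and TALDO1 of the non-oxidative branch, the ribose-phosphate pyrophosphokinases PRPS1 and PRPS2, and TIGAR, which directs glucose carbon towards the pathway. They are 9 of the 28278 genes listed in the count files, and all 9 passed the filter on low counts that left 15307 genes for testing. HT29 is an epithelial line derived from a human colorectal adenocarcinoma. In 3 libraries, termed siALDOA, the cells had received an siRNA against ALDOA (aldolase A), and in 3 others, termed siControl, a scrambled siRNA, and total RNA was taken 48 h later from both. The comparison addresses which transcripts differ once this glycolytic enzyme is depleted. The labels speak of a targeting siRNA in the singular, without its sequence, and of no cells left without siRNA, so effects of that siRNA apart from its target and effects of ALDOA depletion cannot be told apart.

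The pathway branches off glycolysis at glucose 6-phosphate. Its oxidative branch makes NADPH, the reducing power for lipid synthesis and for glutathione and thioredoxin, and ends in ribulose 5-phosphate. The non-oxidative branch is reversible and exchanges carbon between pentose phosphates and the glycolytic intermediates fructose 6-phosphate and glyceraldehyde 3-phosphate, the latter also a product of aldolase. PRPS1 and PRPS2 convert ribose 5-phosphate to phosphoribosyl pyrophosphate (PRPP), the ribose donor for purine, pyrimidine and NAD synthesis. Fast-growing tumour cells are known for drawing on both branches.

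The sequences upstream of 3 members are shown because the results below turn on them. PGD was the member that passed the test, TIGAR had the next smallest p, and TKT is a non-oxidative enzyme with a high count whose groups overlapped. Each run holds the 250 bases before the RefSeq start site in the direction of the gene (RefSeq, GRCh38.p14), namely chr1:10398814-10399063 on the plus strand for PGD, chr12:4320963-4321212 on the plus strand for TIGAR and chr3:53256023-53256272 on the minus strand for TKT. Capitals mark the CCAAT box (CCAAT or its complement ATTGG), the GC box (GGGCGG or CCGCCC) and the core of the antioxidant response element (TGACNNNGC), each searched and marked on both strands, with adjoining GC boxes running together.
PGD: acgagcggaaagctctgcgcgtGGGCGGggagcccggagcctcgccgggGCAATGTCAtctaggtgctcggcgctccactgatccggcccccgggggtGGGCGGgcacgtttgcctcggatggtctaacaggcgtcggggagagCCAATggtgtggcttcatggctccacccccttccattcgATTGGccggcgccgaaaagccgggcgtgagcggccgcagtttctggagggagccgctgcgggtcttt
TIGAR: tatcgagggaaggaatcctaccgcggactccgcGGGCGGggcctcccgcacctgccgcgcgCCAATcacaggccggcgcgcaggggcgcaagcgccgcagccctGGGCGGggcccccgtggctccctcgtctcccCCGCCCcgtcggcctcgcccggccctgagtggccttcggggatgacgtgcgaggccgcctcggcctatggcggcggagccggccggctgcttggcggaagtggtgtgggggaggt
TKT: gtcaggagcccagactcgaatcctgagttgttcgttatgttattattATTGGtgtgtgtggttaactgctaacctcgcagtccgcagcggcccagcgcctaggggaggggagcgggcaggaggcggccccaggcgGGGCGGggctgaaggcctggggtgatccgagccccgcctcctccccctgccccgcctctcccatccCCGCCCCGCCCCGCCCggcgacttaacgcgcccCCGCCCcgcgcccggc
All 9 members had a RefSeq promoter window of 250 bases before and 50 after the start. A GC box was present in 9 of the 9 windows against 44.95% of all 35116 windows, and a CCAAT box in 7 against 34.6%. The member windows held 61.0% to 78.0% G and C, against a median of 58.7% over all windows. The part of base composition in these shares was not tested. The antioxidant response element core, a letter pattern that NRF2 can bind, was present in 2 members, PGD from position -201 to -193 on the opposite strand and RPE from -151 to -143, against 13.3% of all windows. Neither the E-box CACGTG (7.26% of all windows) nor TATAAA (11.5%) was present in any of the 9. These matches are letters in a window and no binding was measured.

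The libraries held 27277538 to 33237914 counts, and the members had 257 to 12520 counts in each. Ribosomal RNA genes took 7.71% to 13.1% of the counts in the siALDOA libraries and 8.15% to 17.4% in the siControl libraries. ALDOA itself was at 283, 305 and 280 CPM (counts per 1000000 counts of the library, with library sizes scaled by the trimmed mean of M-values) with siALDOA and at 592, 637 and 668 CPM with siControl, which is -1.13 ± 0.060 on the log2 scale (± standard error here and below; adjusted p = 6.95e-11). Of its canonical transcript 1472 bases (89.8%) are shared on the same strand with ENSG00000285043, which is not among the genes of the count files. Of the epithelial markers KRT8 was highest, at 4874 to 5796 CPM, while CDX2 was at 10.9 to 14.8 CPM, CEACAM5 at 5.86 to 10.8 CPM, and LGALS4 had 0 counts throughout. Of the 10 epithelial markers 9 were tested, with KRT19 higher and KRT18 lower at an adjusted p < 0.05, and their summed level was 9474.5 to 9806 CPM with siALDOA and 10039 to 10599.9 CPM with siControl. The 6 fibroblast markers summed to at most 4.39 CPM in any library (COL1A2 at 0), the 6 blood cell markers to at most 0.387 CPM (CD3E, TYROBP and S100A8 at 0) and the 3 endothelial markers to at most 0.0998 CPM (KDR at 0). The part of these differences in the results below was not tested.

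PGD was lower with siALDOA and was the only member that passed an adjusted p < 0.05 in the main test. TIGAR was lower by a similar amount but did not pass. The other 7 members did not pass either, and their log2 fold changes lay between -0.17 and 0.12. Thus 0 members rose and 1 of 9 fell, where 4.36% of all 15307 tested genes rose and 5.29% fell, 9.66% together, so the share of members called stood near the background. With library totals only as the scaling, the balance over all genes turned to 895 that rose and 279 that fell, against 668 and 810 in the main test. With ribosomal RNA genes removed before that scaling, 735 rose and 760 fell. At 0.01 without adjustment, the threshold of the study, PGD and TIGAR passed, or 2 of the 9, against 12.5% of all tested genes. The median log2 fold change was -0.055 over the 9 members and 0.0016 over all tested genes, with 3 members above 0 and 6 below. The median over the members moved with single libraries, from -0.087 without siALDOA replicate 1 to -0.017 without siALDOA replicate 3, and was 0.015 with library totals only.

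**Figure D1:**
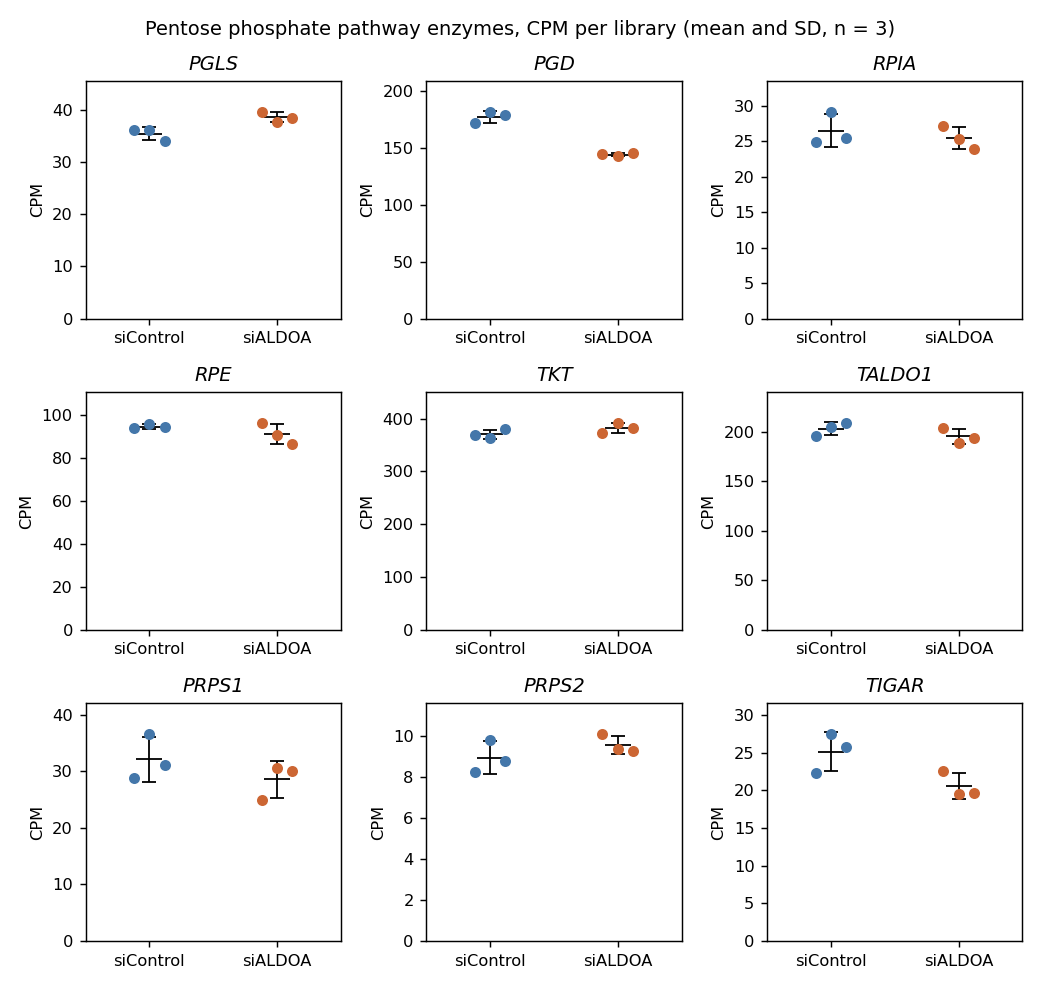
Level of each of the 9 pentose phosphate pathway enzymes in CPM (vertical axis, from 0) in the 3 siControl (blue) and 3 siALDOA (orange) libraries, with the mean and SD as bars. The PGD points of siALDOA sit at 143 to 145 CPM below the siControl points at 172 to 182 CPM, and in 7 of the panels the groups overlap.

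In the oxidative branch, PGD (ENSG00000142657, chr1:10398592-10420511 of hg38, 13 exons in its canonical transcript) encodes 6-phosphogluconate dehydrogenase, which makes NADPH and ribulose 5-phosphate. It was at 145, 143 and 145 CPM with siALDOA and at 172, 182 and 179 CPM with siControl. The groups did not overlap, and the spread within each (SD 1.38 and 5.15 CPM, n = 3 each) was small beside the difference of their means of 144 and 178 CPM. PGD fell by 18.7%, a log2 fold change of -0.30 ± 0.055 (95% interval -0.41 to -0.18; adjusted p = 0.00120, edgeR quasi-likelihood test). Lower fold changes than that of PGD were found for 8.81% of tested genes. In the 3 libraries with under 10% ribosomal RNA counts PGD was at 143 and 145 CPM with siALDOA against 179 CPM with siControl, a log2 fold change of -0.32 that rests on a single siControl library. With library totals only as the scaling the fold change was -0.23 and did not pass (adjusted p = 0.0802). In bulk RNA a lower level in each cell and fewer cells that express the gene cannot be told apart.

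PGLS (ENSG00000130313, chr19:17511636-17521288 of hg38) encodes 6-phosphogluconolactonase, which opens the lactone ring to yield the substrate of PGD. It was at 39.6, 37.8 and 38.5 CPM with siALDOA and at 36.2, 36.1 and 34.0 CPM with siControl. The siALDOA values all lay above the siControl values, opposite to PGD. The log2 fold change of 0.12 ± 0.072 did not pass (95% interval -0.03 to 0.27; adjusted p = 0.315). PGD and PGLS were the 2 of 9 members whose groups did not overlap, which 27.7% of all tested genes also showed.

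Summed over PGLS and PGD, the oxidative branch was at 185, 181 and 184 CPM with siALDOA and at 208, 218 and 213 CPM with siControl. These groups did not overlap, and PGD made up most of the sum. The 4 non-oxidative enzymes summed to 700, 697 and 686 CPM with siALDOA and to 683, 693 and 708 CPM with siControl, with full overlap.

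TKT (ENSG00000163931, chr3:53224712-53256052 of hg38) encodes transketolase, which moves 2-carbon units between sugar phosphates. It had 373, 391 and 382 CPM with siALDOA and 369, 363 and 380 CPM with siControl, so the groups overlapped, with a log2 fold change of 0.044 ± 0.054 (95% interval -0.07 to 0.16; adjusted p = 0.678). TALDO1 (ENSG00000177156, chr11:747415-765012 of hg38) encodes transaldolase, its partner for 3-carbon units. TALDO1 had 204, 189 and 193 CPM with siALDOA and 195, 205 and 209 CPM with siControl, again overlapping, and its log2 fold change was -0.055 ± 0.057 (95% interval -0.17 to 0.06; adjusted p = 0.614). Leaving out 1 library at a time gave 0.026 to 0.062 for TKT and -0.087 to -0.033 for TALDO1. For both genes the intervals of the main test leave room for a change of at most 0.17 on the log2 scale in either direction. With library totals only TKT was at 0.12 ± 0.084 and TALDO1 at 0.015 ± 0.082. In the libraries with under 10% ribosomal RNA counts, which hold a single siControl library, TKT was at 0.025 and TALDO1 at -0.13.

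RPIA (ENSG00000153574, chr2:88691673-88750929 of hg38) encodes the isomerase that turns ribulose 5-phosphate into ribose 5-phosphate. Its 27.1, 25.3 and 23.9 CPM with siALDOA overlapped the 24.9, 29.1 and 25.5 CPM with siControl, and its log2 fold change was -0.058 ± 0.089 (95% interval -0.24 to 0.13; adjusted p = 0.752). RPE (ENSG00000197713, chr2:210002565-210022260 of hg38) encodes the epimerase that makes xylulose 5-phosphate, the co-substrate of transketolase. Its 96.2, 90.9 and 86.8 CPM with siALDOA spanned the narrow range of 93.8, 95.9 and 94.3 CPM with siControl, and the log2 fold change was -0.052 ± 0.061 (95% interval -0.18 to 0.07; adjusted p = 0.665), which became -0.092 without siALDOA replicate 1 and -0.017 without siALDOA replicate 3. The direction of RPIA, RPE and TALDO1 turned with library totals only, to 0.015, 0.020 and 0.015, a scaling under which the median over all tested genes was 0.075. The canonical RPE transcript shares 840 bases (26.4%) with the antisense gene KANSL1L, and how the counting treated strand is not given in the sources used here. KANSL1L had a log2 fold change of 0.09 (adjusted p = 0.570).

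The PRPP synthetases did not pass either. PRPS1 (ENSG00000147224, chrX:107628428-107651993 of hg38) was at 24.9, 30.6 and 30.1 CPM with siALDOA and at 28.8, 36.5 and 31.1 CPM with siControl, the widest spread within groups, relative to the mean, among the members. Its groups overlapped, and the log2 fold change was -0.17 ± 0.098 (95% interval -0.37 to 0.03; adjusted p = 0.312). That value rested in part on single libraries, since it was -0.080 without siALDOA replicate 1 and -0.069 without siControl replicate 2. PRPS2 (ENSG00000101911, chrX:12791355-12824222 of hg38), the paralog, had the fewest counts of the members, 257 to 300 in a library, and was at 10.1, 9.38 and 9.26 CPM with siALDOA and at 8.24, 9.83 and 8.77 CPM with siControl. These values overlapped too, with a log2 fold change of 0.098 ± 0.12 (95% interval -0.16 to 0.36; adjusted p = 0.697). It was 0.043 without siControl replicate 1 and 0.17 without siControl replicate 2. The coding sequences of the pair are 79.8% identical with a longest exact run of 23 bases, well under the 150 bases of a read.

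The balance of the paralogs is free of library scaling. PRPS1 supplied 71.1%, 76.6% and 76.5% of the PRPS1 and PRPS2 counts with siALDOA and 77.7%, 78.8% and 78.0% with siControl. Every siALDOA value was below every siControl value, and siALDOA replicate 1 stood lowest, with an exact (Clopper-Pearson) 95% binomial interval of 68.2% to 74.0%. The difference of the group means, siALDOA minus siControl, was -3.45 percentage points and -1.64 without that library. The intervals of the other 2 siALDOA libraries, 74.1% to 78.9% and 73.9% to 79.0%, overlapped those of the siControl libraries, which ran from 75.2% to 80.9%, and intervals cover counting error only. The share carries no test, and 27.7% of all tested genes also had groups without overlap in CPM.

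TIGAR (ENSG00000078237, chr12:4307763-4360028 of hg38) encodes a fructose bisphosphatase that slows glycolysis and so favours the pentose phosphate pathway. It was at 22.5, 19.5 and 19.6 CPM with siALDOA and at 22.3, 27.4 and 25.7 CPM with siControl. The groups overlapped only through replicate 1 of each, at 22.5 and 22.3 CPM, and the other 4 libraries were apart. The log2 fold change was -0.29 ± 0.097 (95% interval -0.49 to -0.09), and it missed the threshold after adjustment over all genes (adjusted p = 0.0647). TIGAR passed without siALDOA replicate 1 (-0.36, adjusted p = 0.0274) and without siControl replicate 1 (-0.37, adjusted p = 0.0249), the libraries through which the groups overlapped. Without each of the other 4 libraries it was at -0.28 to -0.23 and did not pass (adjusted p = 0.173 to 0.264), nor did it with library totals only (-0.22, adjusted p = 0.227). Of the canonical TIGAR transcript 1711 bases (20.8%) also belong to ENSG00000285901 on the same strand, a gene not among those listed in the count files, so reads of the 2 genes there cannot be separated.

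**Figure D2:**
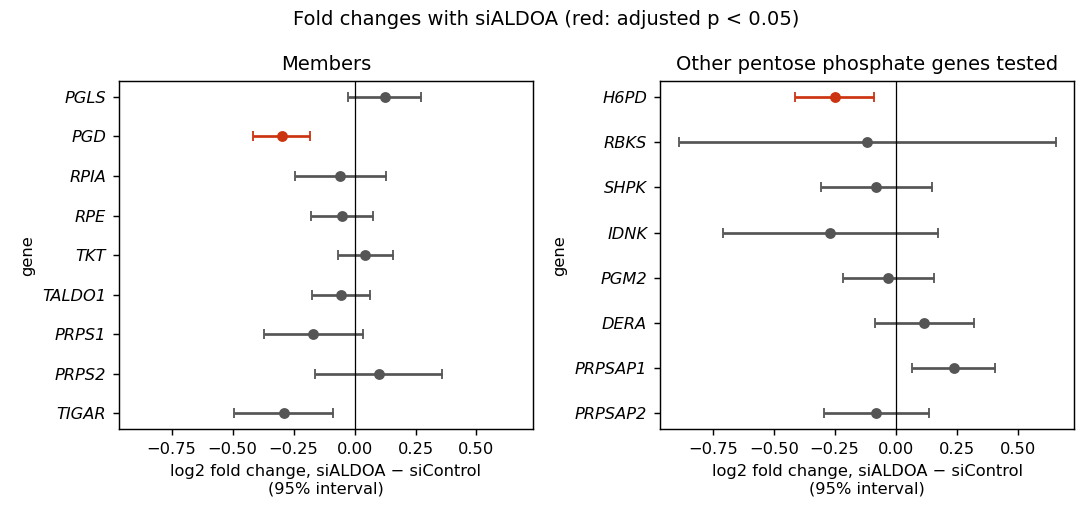
Log2 fold change, siALDOA minus siControl, with its 95% interval (horizontal axis) for the 9 members on the left and the 8 other pentose phosphate genes tested on the right. PGD at -0.30 and H6PD at -0.25 are the genes drawn in red, at an adjusted p < 0.05, while the intervals of TIGAR below 0 and PRPSAP1 above 0 also leave out 0.

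The fall of PGD was also read as ratios of counts within each library, which no scaling of the libraries can change. The ratio of PGD to TKT was 0.388, 0.365 and 0.380 with siALDOA and 0.466, 0.501 and 0.471 with siControl. The ratio of PGD to PGLS was 3.66, 3.78 and 3.78 against 4.74, 5.04 and 5.26. In both ratios the groups stood well apart, with denominators whose own log2 fold changes were above 0 (0.044 for TKT and 0.12 for PGLS). PGD supplied 15.4%, 15.2% and 15.6% of the counts of all 9 members with siALDOA and 18.1%, 18.5% and 18.1% with siControl. The ratio of TKT to TALDO1 was 1.83, 2.07 and 1.97 with siALDOA and 1.89, 1.77 and 1.82 with siControl, and these groups overlapped. The ratios were chosen after the values of the members were seen and carry no test.

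**Figure D3:**
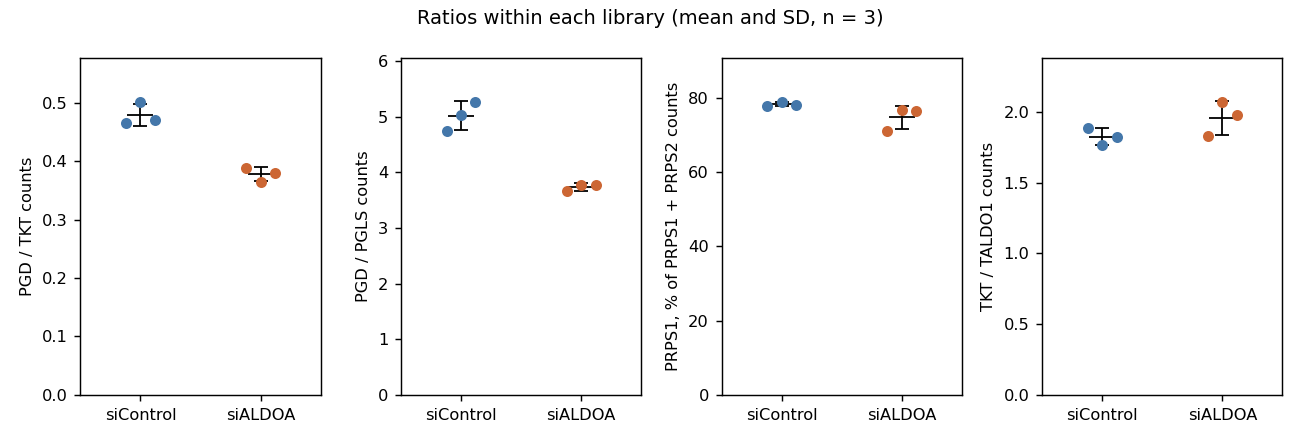
Ratios of counts within each library (vertical axes from 0, mean and SD of 3 libraries per group) for PGD to TKT, PGD to PGLS, the percent of PRPS1 in PRPS1 plus PRPS2 counts, and TKT to TALDO1. Both PGD ratios are lower in all 3 siALDOA libraries, at 0.365 to 0.388 and 3.66 to 3.78, while TKT to TALDO1 overlaps.

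Levels can be compared between members only per length. In CPM per kilobase of the union of exons, averaged over the 6 libraries, TALDO1 led with 68.6, ahead of PGD with 48.3, TKT with 39.6 and RPE with 26.4. RPIA with 14.3 and PGLS with 13.0 followed and overlapped in their ranges over libraries, then PRPS1 with 8.95, PRPS2 with 3.36 and TIGAR with 2.42, with no other overlap between neighbours. Per kilobase of the canonical transcript, TALDO1 (166) and TKT (126) led PGD (71.0), PGLS (36.7) and RPE (29.2), PRPS1 (14.7) and RPIA (14.3) overlapped, and PRPS2 (3.75) and TIGAR (2.78) were again lowest, with ranges that touched. Per kilobase of the longest transcript, PGD (71.0) was again ahead of TKT (51.7), and PGLS (23.1) stood below RPE (29.2). The order of TKT and PGD, that of PGLS and RPE or RPIA, and that of RPIA and PRPS1 thus depend on the length used, while TALDO1 was highest and PRPS2 and TIGAR lowest with all 3 lengths.

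**Figure D4:**
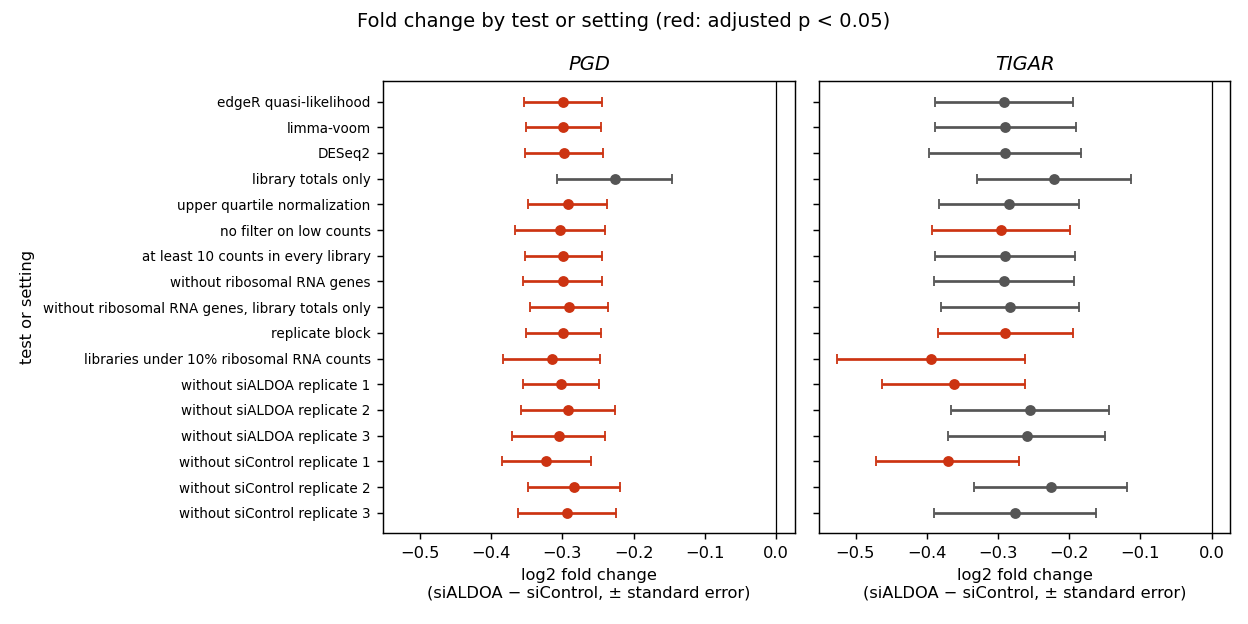
Log2 fold change (horizontal axis, siALDOA minus siControl, ± standard error) of PGD on the left and TIGAR on the right under the main test and each of 16 alternatives, in red where the adjusted p < 0.05. PGD passes in 15 of the 16 alternatives, with values from -0.32 to -0.23, and TIGAR in 5 of them, with values from -0.39 to -0.22, both counts including the libraries under 10% ribosomal RNA counts, where a single siControl library remains.

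Of 12 other genes of the pathway, 8 were tested, of which 0 rose and 1 fell, with a median log2 fold change of -0.079. H6PD, the enzyme that runs the first steps of the oxidative branch inside the endoplasmic reticulum, was at 66.5, 80.0 and 82.0 CPM with siALDOA and at 85.4, 87.9 and 98.6 CPM with siControl. The groups did not overlap and H6PD fell by 0.25 ± 0.077 on the log2 scale (adjusted p = 0.0446). That call was lost with smaller values without siALDOA replicate 1 (-0.16), without siControl replicate 3 (-0.19) and with library totals only (-0.18). It was also lost, at values close to the main one, without siALDOA replicate 2 (-0.29), without siControl replicate 2 (-0.27) and with upper quartile scaling (-0.24), where the adjusted p ran from 0.05004 to 0.0893. PRPSAP1 and PRPSAP2, paralogs and regulatory partners of the PRPP synthetases, did not pass. PRPSAP1 had 30.2, 29.5 and 27.4 CPM with siALDOA against 23.6, 24.9 and 25.3 CPM, without overlap (log2 fold change 0.24 ± 0.082; adjusted p = 0.0735), and PRPSAP2 had a log2 fold change of -0.079 (adjusted p = 0.706).

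The closest paralogs of TKT, RPE and PRPS1 had few or no counts. TKTL1 had 1 count in each of 2 libraries, TKTL2 6 counts in 1 library, RPEL1 2 counts in 1 library, and PRPS1L1 0 counts in all 6, where 3 counts correspond to 0.0910 to 0.108 CPM. Coding sequence identity to the member was 69.5% for TKTL1, 67.9% for TKTL2, 97.5% for RPEL1 and 92.3% for PRPS1L1. The longest exact run was 139 bases for RPE and RPEL1 and 74 bases for PRPS1 and PRPS1L1. In the 9 canonical transcripts 0 stretches of 150 bases matched another gene in the count files exactly. That search does not cover reads aligned with mismatches.

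In de novo purine synthesis, which starts from PRPP, the 11 genes had a median log2 fold change of -0.0062, with 1 gene called in each direction. IMPDH1, which commits IMP to guanine nucleotides, fell by 0.32 ± 0.071 on the log2 scale (adjusted p = 0.00503). It stayed lower but missed the threshold with library totals only (-0.25, adjusted p = 0.0873) and in the 3 libraries with under 10% ribosomal RNA counts (-0.24, adjusted p = 0.0524). GMPS, the next enzyme towards GMP, rose by 0.21 ± 0.062 (adjusted p = 0.0325). It passed in 0 of the 6 fits that left out a library, although its value stayed between 0.18 and 0.24 in them. The 6 other PRPP users had a median of 0.10, with 1 called, the NAD synthesis gene QPRT (0.22, adjusted p = 0.0414), which passed in 1 of those 6 fits at values of 0.17 to 0.28.

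Among other sources of NADPH and NAD kinases, 11 of the 12 listed genes were tested, with a median of -0.041, 0 that rose and 1 that fell. MTHFD1L, a mitochondrial formyltetrahydrofolate synthetase that does not itself make NADPH, fell by 0.33 ± 0.072 on the log2 scale (adjusted p = 0.00507). It stayed lower but missed the threshold with library totals only (-0.26, adjusted p = 0.0815) and, narrowly, without siControl replicate 2 (-0.28, adjusted p = 0.05001). IDH1, a cytosolic NADPH source (-0.17, adjusted p = 0.0634), and ME1, the cytosolic malic enzyme (0.21, adjusted p = 0.0601), missed the threshold and are named after their values were seen. IDH1 passed in 7 of the 16 alternatives, limma-voom and DESeq2 among them, and ME1 in 4, among them DESeq2 and library totals only. The 7 NADPH-using reductases had a median of -0.036 and 1 that fell, TXNRD1, the cytosolic thioredoxin reductase (-0.26 ± 0.055; adjusted p = 0.00383). TXNRD1 passed in all 6 fits that left out a library and stayed lower without passing with library totals only (-0.19, adjusted p = 0.155).

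**Figure D5:**
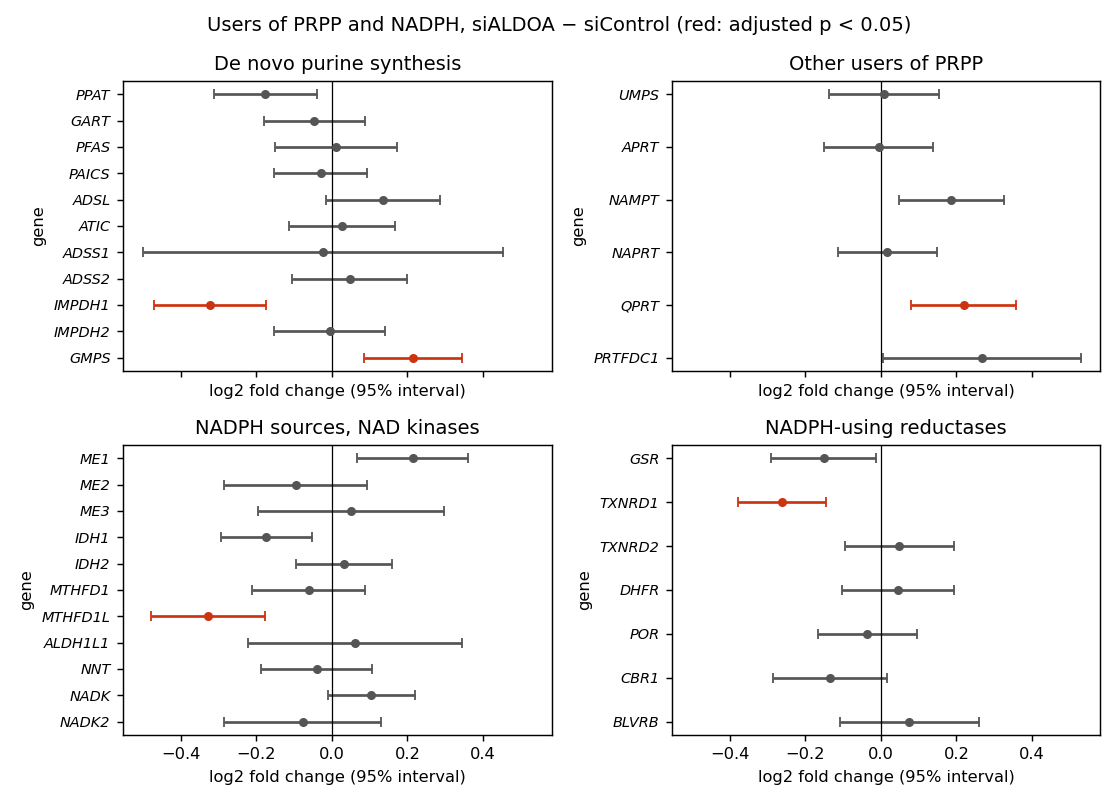
Log2 fold change with its 95% interval (horizontal axis, siALDOA minus siControl) of the genes of purine synthesis, other PRPP users, other NADPH sources and NADPH-using reductases, in red at an adjusted p < 0.05. The red genes are GMPS (0.21), IMPDH1 (-0.32), QPRT (0.22), MTHFD1L (-0.33) and TXNRD1 (-0.26), and most other intervals cross 0.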

How the data were processed

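Total RNA of 6 HT29 libraries (3 siALDOA, 3 siControl, labelled as biological replicates) was sequenced as paired reads of 150 bases. For each library the authors deposited raw read counts per gene, made after alignment by TopHat2 against hg38. They counted with GFOLD and used edgeR and limma for their own tests. The annotation and the strand setting of the counting are not given in the sources used here.

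From the counts, genes were filtered with filterByExpr, library sizes scaled by the trimmed mean of M-values, and groups compared with the quasi-likelihood F-test of edgeR 4.0.16 in R 4.3.3, with Benjamini-Hochberg adjustment over all 15307 tested genes. The fit was tested on simulated data first. Alternatives were limma-voom (limma 3.58.1), DESeq2 1.42.0, other scalings and filters, leaving out libraries, and the replicate number as a block. Gene positions and lengths were taken from GENCODE 44 on hg38, the build of the count files, and promoters from RefSeq.

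The members and the gene lists were chosen with earlier results of these data known. The text names the 9 members, ALDOA, each list's genes at an adjusted p < 0.05 (up to 4), the paralogs of members in those lists (PRPSAP1 and PRPSAP2 included), and the 3 genes of at least 10 CPM whose log2 CPM correlates best with PGD, and KANSL1L was added for its overlap with RPE. No library repeated another, since 32.1% to 54.6% of genes differed beyond sampling noise between replicates. Libraries of 27277538 to 33237914 counts put 3 counts at 0.0910 to 0.108 CPM.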

Additional observations from a re-analysis of the deposited data

How the results depend on the processing

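PGD stayed lower in all 16 alternatives and passed an adjusted p < 0.05 in 15 of them, while PGLS, RPIA, RPE, TKT, TALDO1, PRPS1 and PRPS2 passed in 0 of the 16. At an adjusted p < 0.05 with library totals only, 0 members and 0 of the genes in the other lists were called lower, 895 of all genes were called higher and 279 lower, and RPIA, RPE and TALDO1 turned to 0.015, 0.020 and 0.015. That scaling moved the median of all genes to 0.075, and with ribosomal RNA genes removed first PGD was again called (-0.29, adjusted p = 0.00115). With that removal 735 of all genes were called higher and 760 lower, and 4 genes of the other lists were called lower. With no filter on low counts, 2 members were called lower, PGD and TIGAR, where 832 of 20970 tested genes were called higher and 1009 lower. In the libraries under 10% ribosomal RNA counts, added after seeing the data, PGD was at -0.32 and TIGAR at -0.39. The lone siControl library was assumed to vary like the others, so calls in that fit have no check between siControl libraries. That fit is among the 16 alternatives, and the counts over them include it. Leaving out 1 library at a time called 359 to 644 genes higher and 471 to 790 lower, the fewest without siControl replicate 2 or 3. It called 1 to 2 members lower (2 without siALDOA replicate 1 or siControl replicate 1), 0 to 1 genes of the other lists higher and 2 to 4 lower, with RPIA from -0.11 to 0.013. Same-numbered libraries of the groups did not deviate together (correlations of 0.035, 0.027 and 0.026), so the numbers were not taken as pairs, although each library correlated best with its own number. With the number as a block, 2 members were called lower, PGD and TIGAR (TIGAR at -0.29, adjusted p = 0.0375). The block fit called 987 of all 15307 tested genes higher and 1175 lower, against 668 and 810 in the main test. It called 4 genes of the other lists higher, and 2411 genes against 1906 had an unadjusted p < 0.01. PRPS2 had the fewest counts of the members, 257 to 300, and 3 libraries per group limit every interval.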

Other observations

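The genes whose log2 CPM over the 6 libraries was most like that of PGD, among 10078 genes at 10 CPM or more, were NUP98 (Pearson r = 0.997), a nuclear pore component, ENDOD1 (0.997) and CEBPG (0.996), a basic leucine zipper transcription factor. All 3 fell with siALDOA, with log2 fold changes of -0.21, -0.44 and -0.28 (adjusted p = 0.0185, 5.34e-05 and 0.00238). The 6 points share the difference between the groups and the scaling of the libraries, so the likeness is a description and carries no p. The 3 genes were picked by that likeness, so their falls and adjusted p are not independent of the choice.

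Among the siALDOA libraries, replicate 1, with 13.1% ribosomal RNA counts against 7.71% and 8.11%, had the highest CPM of 6 members, PGLS, RPIA, RPE, TALDO1, PRPS2 and TIGAR, and the lowest of TKT and PRPS1. The siControl libraries went the other way. Replicate 1 there, with 17.4% ribosomal RNA counts against 15.3% and 8.15%, had the lowest CPM of PGD, RPIA, RPE, TALDO1, PRPS1, PRPS2 and TIGAR. It had the highest CPM of PGLS. The part of the ribosomal RNA share in these values was not tested.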
